A study of Mus musculus with 24 samples.

Results

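The 10 genes described here are antiviral effectors that interferon induces: Mx1, Mx2, Rsad2, Cmpk2, Eif2ak2, Bst2, Ifitm3, Ifi44, Apobec3 and Mov10. They were taken by symbol from GENCODE release M21, and all 10 were found among the 54532 genes of each count table. The 4 tissues of Trex1-/- mice on a C57BL/6J background (heart, stomach, muscle and tongue, always listed in this order) were analysed by RNA-Seq, with 3 control and 3 SN-011 samples for each tissue and 24 samples in all. SN-011 is an antagonist of STING, the adaptor through which cytosolic DNA sensed by cGAS switches on type I interferon, and Trex1 encodes the DNase that clears such DNA. The comparison asks whether the effectors were lower when STING was antagonised in these autoinflammatory mice. Control mice carried the same deletion, so no wild-type level is given. The labels call the controls untreated and give SN-011 at 5 mg/kg, 3 times per week for 4 weeks, whereas the methods of the study describe vehicle controls and daily intraperitoneal doses of 10 mg/kg over 2 weeks, begun at an age of 1 month. The libraries were made from tissue and not from sorted cells, so fewer expressing cells and less RNA per cell cannot be told apart. Neither source says that samples of the same number in different tissues came from the same mouse, and the p-values measure the spread between these samples.

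Interferon binds its receptor and activates the factor ISGF3, which binds the interferon-stimulated response element (ISRE) in front of many genes, and the products of these genes attack a virus at successive steps. Ifitm3 hinders fusion of the virus with the endosome membrane, Mx1 and Mx2 are dynamin-like GTPases that trap viral nucleocapsids, Eif2ak2 (PKR) halts translation when it binds double-stranded RNA, Rsad2 (viperin) makes a chain-terminating nucleotide, and Bst2 (tetherin) holds budding virions on the cell surface. Cmpk2 is a mitochondrial nucleotide kinase, Apobec3 a cytidine deaminase that acts on retroviral DNA, Mov10 an RNA helicase that restricts retroelements, and Ifi44 an interferon-induced protein with a GTP-binding motif. Laboratory C57BL/6 mice carry an Mx1 allele that makes no functional protein, and Mx2 is annotated as a polymorphic pseudogene, so for both genes the counts are of transcript alone.

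Promoter windows of 8 of the 10 genes were read from RefSeq on GRCm38.p6, from 250 bases before to 50 bases after the start of transcription. Mx1 and Mx2 had no entry. The ISRE core was searched on both strands as GAAA, NN and GAAA in a row, where N is any base. It was held by 5 of the 8 genes, Rsad2, Bst2, Apobec3, Eif2ak2 and Ifitm3, against 3.99% of the 27025 genes with a window in the table (3.44% of all 32851 windows). No match was found in the windows of Cmpk2, Ifi44 and Mov10. The stretches around the matches are shown because this is the sequence that ISGF3 is known to bind. They are written 5′ to 3′ on the strand of the gene, with the matching letters in capitals.
Rsad2, chr12:26456523-26456612, minus strand: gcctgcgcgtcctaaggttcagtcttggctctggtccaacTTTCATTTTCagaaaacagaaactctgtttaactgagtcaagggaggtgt
Bst2, chr8:71537547-71537642, minus strand: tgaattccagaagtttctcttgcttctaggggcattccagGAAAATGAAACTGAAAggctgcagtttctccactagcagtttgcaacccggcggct
Apobec3, chr15:79892228-79892317, plus strand: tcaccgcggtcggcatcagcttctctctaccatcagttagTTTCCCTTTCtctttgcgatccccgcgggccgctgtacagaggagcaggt
Eif2ak2, chr17:78882535-78882564, minus strand: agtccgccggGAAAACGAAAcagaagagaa
Ifitm3, chr7:141010714-141010743, minus strand: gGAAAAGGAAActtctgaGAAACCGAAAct
The match began 120 bases before the start in Rsad2 and 140 bases before it in Apobec3, both on the strand opposite to the gene. Bst2 held 2 overlapping matches, the first beginning 130 bases before the start. In Eif2ak2 the match began at base 19 of the transcript, and Ifitm3 held 2, at bases 3 and 20. The second Apobec3 start in the table held no match.

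The total count per sample was 14253416 to 18443329, with a median of 16221409. Levels are given as CPM, the count per 1000000 counts of the normalized library total. On the total before normalization, 3 counts, the smallest number taken as detected, stood for 0.163 to 0.210 per 1000000 counts. These floors cover counting error only. The fewest genes with counts, 11546, were found in muscle SN-011 replicate 2, and the other samples had 19798 to 24264. In every tissue, control replicate 1 was rich in the X-linked transcript Xist and had 0 to 3 counts of the Y-linked Ddx3y, and each of the other samples was the reverse. No sample had a count of Trex1, but this gene lies within the span of Atrip, so the absence does not check the genotype. The summed level of 5 stomach markers (Atp4a, Atp4b, Muc5ac, Pgc and Tff1) was 2224 CPM in heart control replicate 2, 202 CPM in heart control replicate 3 and 4.16 to 20.8 CPM in the other heart samples. In the tongue it was 1993 and 1229.7 CPM in control replicates 2 and 3 and 5.82 to 31.9 CPM in the others, and in the muscle 397 and 147 CPM against 11.7 to 29.3 CPM. Each tissue expressed its own markers, among them Myh6 in the heart, Atp4a in the stomach, Acta1 in the muscle and Krt13 in the tongue.

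All 40 fold changes of the 10 effectors in the 4 tissues were below 0, that is, each effector was on average lower in SN-011 samples than in control samples of every tissue. The median log2 fold changes of the 10 genes were -0.55, -1.12, -0.89 and -0.66, against -0.01, 0.00, -0.08 and -0.01 over all genes tested. Mx1, Rsad2 and Cmpk2 had all 3 SN-011 samples below all 3 control samples in each of the 4 tissues. None of the 40 differences passed the threshold in edgeR's quasi-likelihood test, with adjusted p-values (Benjamini-Hochberg over all genes of a tissue) of 0.0565 to 0.875. At an unadjusted p under 0.05, 28 of the 40 were lower, namely 7, 7, 5 and 9 of 10 by tissue. Over all genes tested, 11.6%, 11.4%, 5.8% and 7.33% were lower at that p. At an adjusted p under 0.05, 0.848%, 0%, 0.0141% and 0% of all genes passed in either direction, and 0.328%, 0%, 0.00704% and 0% were lower.

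Other tests called some of these effectors lower. DESeq2 called 5, 6, 3 and 3, where 3.8%, 4.11%, 3.97% and 1.7% of all genes were called lower. The exact test of edgeR called 5, 6, 1 and 2, where 2.79%, 4.03%, 1.24% and 1.09% of all genes were called lower. Rsad2 was called by both in every tissue, and Mx1 by both in the heart, stomach and tongue. The quasi-likelihood result also rested on single libraries. Without heart control replicate 2, Mx1, Rsad2 and Cmpk2 passed (adjusted p = 0.0255, 0.0431 and 0.0436, edgeR), as did 2.46% of all genes in the same direction. Without stomach control replicate 1, Cmpk2 and Rsad2 passed, with the lowest adjusted p = 0.0444 (edgeR), against 0.0668% of all genes. Without muscle SN-011 replicate 2, Mx1 and Mx2 passed, with a lowest adjusted p of 0.0203 (edgeR), against 3.8% of all genes. Without tongue control replicate 1, 8 of the 10 passed, all but Ifitm3 and Mov10, with a lowest adjusted p of 0.000973 (edgeR), against 8.04% of all genes. No effector was called higher in any of these fits.

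**Figure D1:**
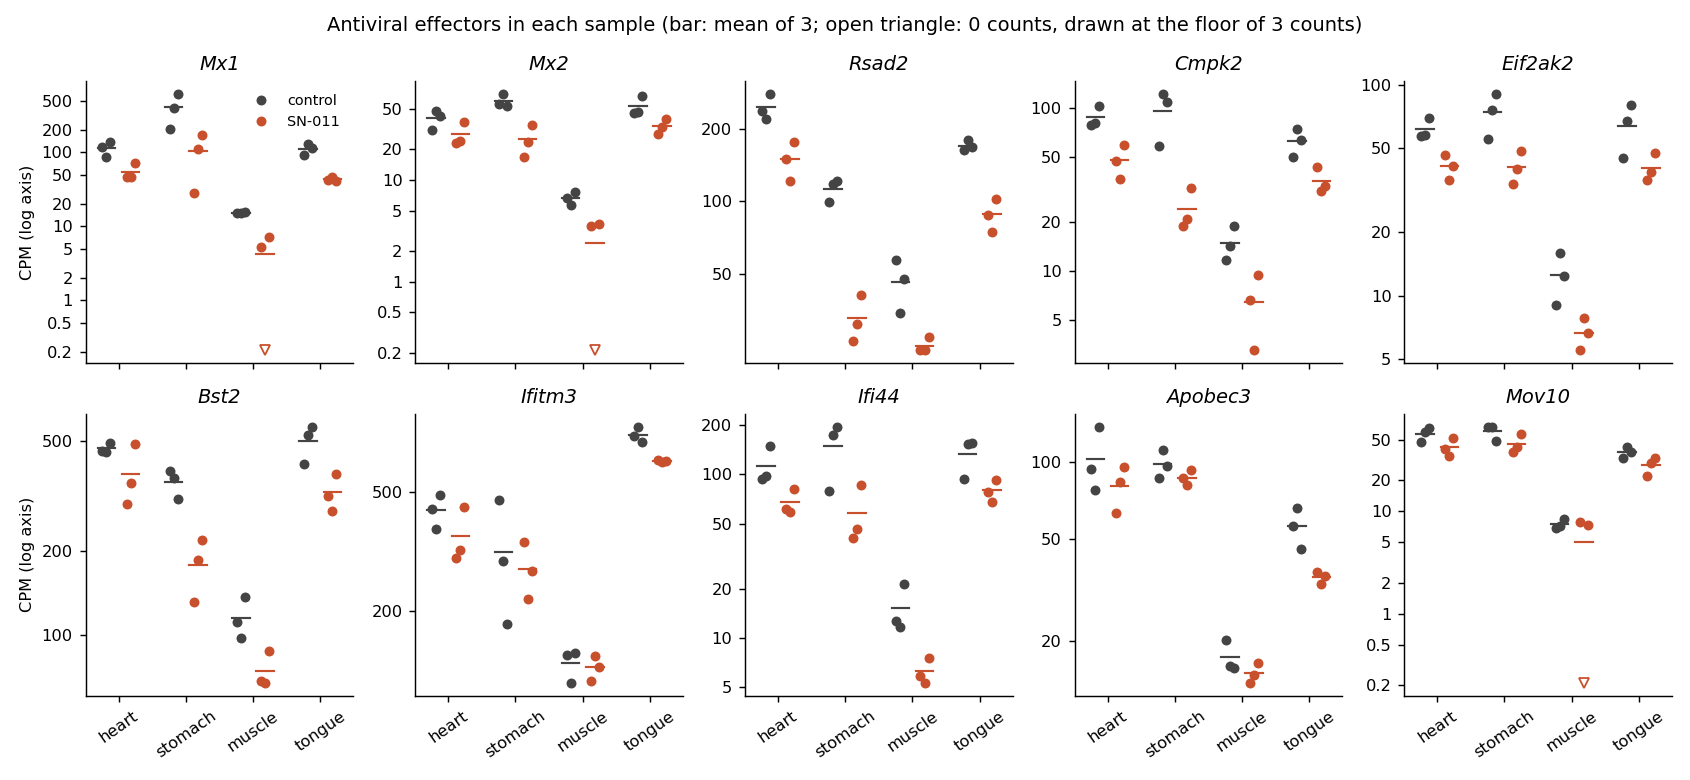
Level of each antiviral effector in every sample, as CPM on a log axis, by tissue, for control (grey) and SN-011 (orange) samples, with the mean of each group of 3 as a bar. Mx1, Rsad2 and Cmpk2 have no overlap between control and SN-011 in any tissue, and the open triangles mark Mx1, Mx2 and Mov10 at 0 counts in muscle SN-011 replicate 2.

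In 27 of the 40 comparisons all SN-011 samples lay below all control samples, 5, 6, 7 and 9 of 10 by tissue. Over all genes tested this held for 13.1%, 15.2%, 19.8% and 8.38%. The summed level of the 10 genes was 1659, 1564 and 1969 CPM in heart control samples and 1080.5, 1116 and 1551 CPM in heart SN-011 samples. In the stomach it was 1572, 1809 and 1824 CPM in control and 762, 804 and 1057 CPM in SN-011 samples, with no overlap. In the muscle the sum was 333 to 430.0 CPM in control and 257 to 303 CPM in SN-011 samples, and in the tongue 1767 to 2114 CPM against 1267 to 1445 CPM. Thus the sums did not overlap in any tissue, and the gap was narrowest in the heart.

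Mx1 (ENSMUSG00000000386, chr16:97447035-97462907, minus strand of GRCm38) had the largest fold change of the 10 genes in the heart, muscle and tongue. In the heart its level was 118, 86.7 and 138 CPM in control and 47.2, 46.8 and 71.2 CPM in SN-011 samples (log2 fold change -1.05, SE 0.21, adjusted p = 0.0565, edgeR). In the tongue it was 92.8, 128 and 116 CPM in control and 41.8, 46.1 and 41.3 CPM in SN-011 samples (log2 fold change -1.39, SE 0.15, adjusted p = 0.221, edgeR). The SN-011 samples of the tongue were close to each other and below every control. In the stomach, where the gene was most abundant, it ranged from 209 to 619.5 CPM in control and from 28.5 to 171 CPM in SN-011 samples (log2 fold change -1.98, SE 0.65, adjusted p = 0.124, edgeR). The spread in CPM within each group was the widest in the stomach, and the groups still did not overlap. In the muscle the 3 control samples were at 15.1, 15.2 and 15.8 CPM and the SN-011 samples at 5.32, 0 and 7.26 CPM. The 0 is that of replicate 2, the library with the fewest genes detected, and without that sample the log2 fold change was -1.29 (adjusted p = 0.0203, edgeR).

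Mx2 (ENSMUSG00000023341, chr16:97535308-97560900, plus strand), the neighbour of Mx1 at 72400 bases, was lower by a smaller amount in each tissue. Its stomach levels were 56.5, 70.5 and 53.1 CPM in control and 16.8, 23.9 and 34.9 CPM in SN-011 samples (log2 fold change -1.25, SE 0.30, adjusted p = 0.0789, edgeR). The groups did not overlap in the stomach, muscle and tongue, but did in the heart, where SN-011 replicate 3 at 37.0 CPM exceeded control replicate 1 at 31.2 CPM. In the muscle Mx2 was at 5.66 to 7.57 CPM in control samples and at 3.50, 0 and 3.69 CPM in SN-011 samples, with a log2 fold change of -1.46 (SE 1.21) and of -0.88 without replicate 2 (adjusted p = 0.0496, edgeR).

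Rsad2 (ENSMUSG00000020641, chr12:26442746-26456452, minus strand), which encodes viperin, had SN-011 samples below all controls everywhere. In the stomach it was at 98.9, 118 and 121 CPM in control and 26.2, 30.8 and 40.8 CPM in SN-011 samples (log2 fold change -1.79, SE 0.25, adjusted p = 0.0618, edgeR). In the heart it was at 237, 219.8 and 279 CPM in control and 149.5, 121.7 and 176.1 CPM in SN-011 samples (log2 fold change -0.72, SE 0.16, adjusted p = 0.0712, edgeR). The gap between the groups was smaller than the range within either group in the heart and larger than it in the stomach. Rsad2 was at 56.6, 34.2 and 47.4 CPM in muscle control and 24.07, 23.98 and 27.22 CPM in muscle SN-011 samples (log2 fold change -0.88, SE 0.20, adjusted p = 0.173, edgeR). In the tongue it was at 162 to 179 CPM in control and 74.7 to 102 CPM in SN-011 samples (log2 fold change -0.95, SE 0.14, adjusted p = 0.256, edgeR).

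Cmpk2 (ENSMUSG00000020638, chr12:26469204-26479837, plus strand) lies 12751 bases from Rsad2 and is transcribed away from it. In the stomach it was at 58.6, 123 and 109 CPM in control and 18.9, 20.8 and 32.6 CPM in SN-011 samples (log2 fold change -2.01, SE 0.35, adjusted p = 0.0621, edgeR). In the heart it was at 79.3, 81.8 and 103 CPM in control and 47.8, 36.7 and 59.6 CPM in SN-011 samples (log2 fold change -0.87, SE 0.18, adjusted p = 0.0618, edgeR). The kinase transcript was also lower in all SN-011 samples of the muscle (3.26 to 9.47 against 11.7 to 19.1 CPM) and tongue (31.1 to 43.5 against 50.1 to 74.3 CPM), with log2 fold changes of -1.21 and -0.80.

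Eif2ak2 (ENSMUSG00000024079, chr17:78852564-78882573, minus strand), the gene of PKR, had similar fold changes in the 4 tissues, from -0.58 in the heart to -0.91 in the muscle. Its heart levels were 57.1, 58.0 and 69.2 CPM in control and 46.6, 35.4 and 41.3 CPM in SN-011 samples (SE 0.14, adjusted p = 0.0760, edgeR). The groups did not overlap in the heart, stomach and muscle. In the tongue, SN-011 replicate 3 at 47.2 CPM was above control replicate 1 at 44.8 CPM. Of its exon bases, 174 are shared with Gm26637 and 47 with n-R5s29, both on the other strand. The libraries were strand-specific, but the methods of the study do not say whether counting used the strand.

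Bst2 (ENSMUSG00000046718, chr8:71534255-71537456, minus strand), which encodes tetherin, was at 391, 369 and 309 CPM in stomach control and 131, 186 and 219 CPM in stomach SN-011 samples (log2 fold change -0.99, SE 0.30, adjusted p = 0.111, edgeR). In the tongue it was at 413, 525 and 564 CPM in control and 317, 281 and 382 CPM in SN-011 samples (log2 fold change -0.62, SE 0.18). Neither pair of groups overlapped, nor did those of the muscle, at 97.4 to 137 and 66.9 to 87.1 CPM. In the heart the log2 fold change was -0.31 (SE 0.18), and SN-011 replicate 3 at 488 CPM was above 2 of the 3 control samples.

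Ifitm3 (ENSMUSG00000025492, chr7:141009586-141010770, minus strand) had log2 fold changes from -0.29 in the heart and tongue to -0.05 in the muscle. In the muscle it was at 143, 115 and 146 CPM in control and 117, 142 and 131 CPM in SN-011 samples (log2 fold change -0.05, 95% interval -0.39 to 0.29). The samples were mixed in order, and without SN-011 replicate 1 the value was 0.01. In the stomach the control samples ranged from 181 to 472 CPM, around the SN-011 range of 219 to 341 CPM (log2 fold change -0.18, 95% interval -1.09 to 0.72), and the value was 0.19 without control replicate 1 and 0.10 with library size as the only scaling. The tongue was the tissue where the groups were apart, at 775, 831 and 737 CPM in control and 641, 632 and 638 CPM in SN-011 samples (log2 fold change -0.29, SE 0.12, adjusted p = 0.386, edgeR).

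Ifi44 (ENSMUSG00000028037, chr3:151730922-151749960, minus strand) was at 93.7, 97.4 and 149 CPM in heart control and 61.8, 59.3 and 81.9 CPM in heart SN-011 samples (log2 fold change -0.74, SE 0.20, adjusted p = 0.0946, edgeR). The groups were also apart in the muscle (log2 fold change -1.29, SE 0.32) and tongue (log2 fold change -0.75, SE 0.22). In the stomach the fold change was larger, -1.38 (SE 0.42), but SN-011 replicate 3 at 86.5 CPM was above control replicate 1 at 78.9 CPM.

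Apobec3 (ENSMUSG00000009585, chr15:79891659-79915906, plus strand) and Mov10 (ENSMUSG00000002227, chr3:104794836-104818563, minus strand), both restrictors of retroelements, separated in the tongue alone. Apobec3 was at 56.35, 66.03 and 45.72 CPM in tongue control and 37.1, 33.3 and 36.0 CPM in tongue SN-011 samples (log2 fold change -0.66, SE 0.16, adjusted p = 0.271, edgeR). In the other 3 tissues its log2 fold changes lay between -0.35 and -0.18, and the groups overlapped. Mov10 was at 33.2, 42.4 and 37.7 CPM in tongue control and 21.9, 29.8 and 32.8 CPM in tongue SN-011 samples (log2 fold change -0.42, SE 0.19). Its heart and stomach log2 fold changes were -0.43 and -0.41, and the groups overlapped in both. In the muscle Mov10 was at 6.86, 7.19 and 8.47 CPM in control and 7.79, 0 and 7.31 CPM in SN-011 samples, so the log2 fold change of -0.57 was that of replicate 2 and became 0.01 without it. Apobec3 shares 676 exon bases with D730005E14Rik on the same strand, where reads may not be assigned, and 100 with Cbx7 on the other strand.

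**Figure D2:**
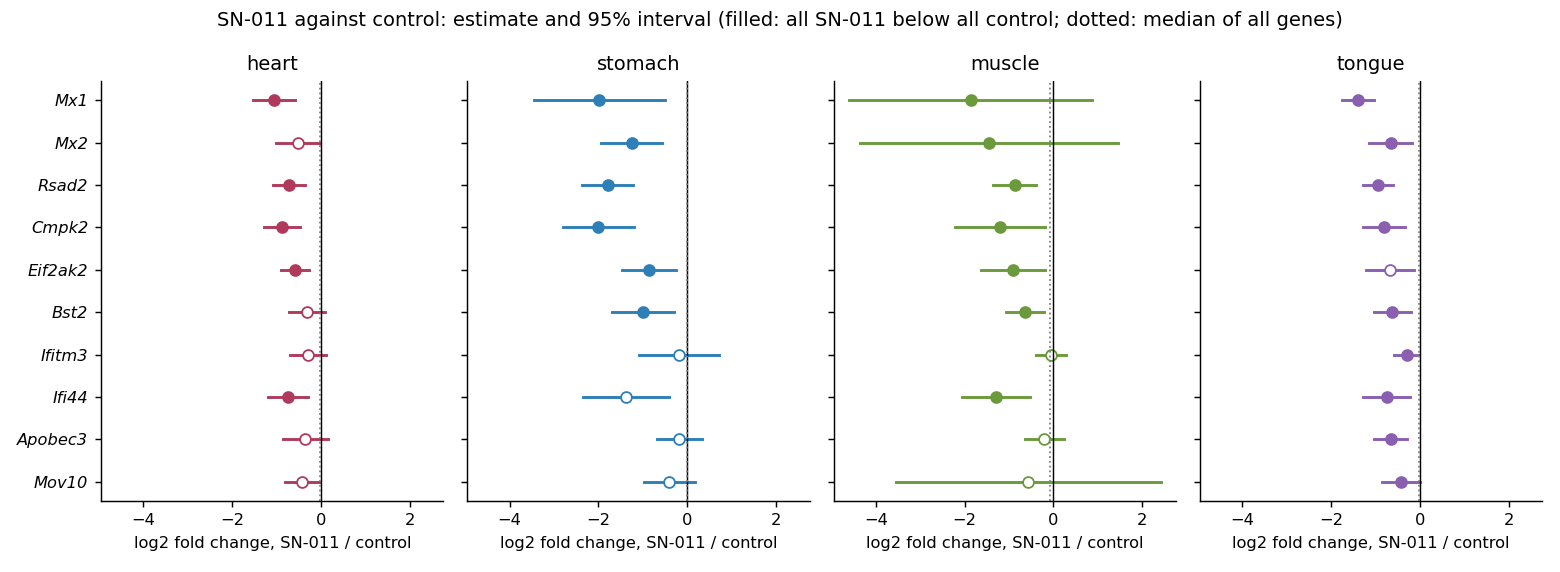
Log2 fold change of SN-011 over control for each antiviral effector, by tissue, with its 95% interval from edgeR's quasi-likelihood fit. Filled points mark genes with all SN-011 samples below all control samples, and the dotted line marks the median of all genes tested; Mx1, Mx2 and Mov10 have their widest intervals in the muscle.

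Markers of other cells moved with the treatment groups, and their part in these differences was not tested. Ptprc, which marks all leukocytes, was at 104 to 229 CPM in heart control and 89.8 to 109 CPM in heart SN-011 samples. Its log2 fold changes were -0.71, -0.99, -0.92 and -0.59, lower at an unadjusted p under 0.05 in the heart and tongue, and it was called in no tissue. In the muscle it was at 13.5 to 20.1 and 2.45 to 12.8 CPM, without overlap. Of 4 T-cell markers, 4, 3, 3 and 3 were lower on average in these tissues, with summed levels of 73.6 to 136 CPM in heart control and 62.9 to 101 CPM in heart SN-011 samples. Their sums were apart in the muscle alone, at 11.05 to 20.77 and 4.323 to 10.999 CPM. Of 4 macrophage markers, 3, 1, 1 and 3 were lower, and their sum overlapped between the groups in all 4 tissues. The 2 markers of plasmacytoid dendritic cells, Siglech and Ccr9, which are a known source of interferon, summed to at most 7.11 CPM in any sample. Their sum was 1.52 to 4.81 CPM in heart control and 0.336 to 0.921 CPM in heart SN-011 samples, and 1.08 to 1.94 and 0.537 to 0.623 CPM in the tongue, with no overlap in either. Siglech, the one of them that could be tested there, had log2 fold changes of -2.409 and -2.001 in these tissues (adjusted p = 0.0897 and 0.281, edgeR). The sum of the 2 markers overlapped in the stomach, at 0.686 to 7.11 CPM in control and 0.857 to 1.78 CPM in SN-011 samples. It also overlapped in the muscle, where SN-011 replicate 2 was the highest sample at 3.02 CPM. The 2 fibroblast markers summed to 575 to 966 CPM in heart control and 375 to 516 CPM in heart SN-011 samples, and to 320 to 518 and 134 to 197 CPM in the muscle, again without overlap, whereas their stomach and tongue sums overlapped. The 2 endothelial markers were apart in the muscle, at 143 to 165 and 119 to 127 CPM, and overlapped elsewhere. Neutrophil markers summed to 365 CPM in tongue control replicate 3 and to 1.37 to 4.72 CPM in the other tongue samples, and were higher in all stomach SN-011 samples (3.89 to 7.95 CPM) than in stomach controls (0.484 to 3.21 CPM). The sums of 3 B-cell and 2 NK-cell markers overlapped between the groups in all 4 tissues. The stomach markers were lower in SN-011 samples of the heart, muscle and tongue (all 4, 4 and 5 that could be tested, at an unadjusted p under 0.05), where control replicates 2 and 3 held them. Without control replicate 2, all 10 effectors were still lower on average in each of these tissues, with median log2 fold changes of -0.57, -0.91 and -0.64, but control replicate 3, which stayed in, held these markers too. In the stomach, 4 squamous keratin markers summed to 106 to 232 CPM in control and 438 to 1446 CPM in SN-011 samples, and all 4 were higher at an unadjusted p under 0.05. Without control replicate 1, the sample with Xist in each tissue, the median log2 fold changes of the 10 genes were -0.67, -1.19, -0.91 and -0.81, with 10, 9, 10 and 10 of 10 below 0.

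Differences in the SN-011 effect from tissue to tissue were tested for the 10 genes in each of 6 pairs of tissues, with all 24 samples fitted together. Of the 60 tests 1 passed. Rsad2 was lower by a larger factor in the stomach than in the heart, with a difference between the log2 fold changes (heart minus stomach) of 1.09 (SE 0.28, adjusted p = 0.0483, edgeR). Over all genes, 2.01% passed in this pair, 0.00507% in heart against muscle, 0% in heart against tongue, 6.95% in stomach against muscle, 0.821% in stomach against tongue and 0.0355% in muscle against tongue. The call is at the edge of the threshold: with 1 library left out it was lost in 20 of 24 fits and was held without muscle control replicate 2, muscle SN-011 replicate 2, stomach control replicate 1 or stomach control replicate 3. The difference itself stayed between 0.95 and 1.29 in these fits, with adjusted p-values of 0.0253 to 0.181 (edgeR). It was 1.03 with DESeq2's size factors (adjusted p = 0.0535, edgeR), 1.03 in DESeq2's own test (adjusted p = 0.0130), 1.11 with no filter (adjusted p = 0.108) and 0.76 with library size alone (adjusted p = 0.215). The next lowest adjusted p of the 60 was 0.0696 (edgeR), for Rsad2 in the stomach against the muscle. In a fit blocked on the replicate number within each treatment it became 0.0438 (edgeR) and 2 of the 60 passed. The intervals of the other differences were wide, such as -0.97 to 2.84 for Mx1 in the heart against the stomach, and do not show that the tissues responded alike.

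The level of the effectors without SN-011 differed between tissues, and muscle was low for most. In control samples, 37 of the 60 tests between pairs of tissues passed. The tests take the 12 control samples as independent, but same-numbered control samples of different tissues deviated together to some degree, with correlations of -0.14 to 0.52 (mean 0.23) between their deviations from the group means, and replicate 1 was the sample with Xist in each tissue. In a fit blocked on the replicate number, the same 37 passed and Cmpk2 was called higher in the heart than in the tongue (adjusted p = 0.0471, edgeR). All 10 genes were lower in muscle than in tongue, 9 lower in muscle than in heart and 8 lower in muscle than in stomach, against 43.3%, 38.9% and 56.7% of all genes that differed in either direction. Between heart and tongue 3 passed (32.3% of all genes), between stomach and tongue 5 (40.6%) and between heart and stomach 2 (46.7%). With other scalings, no filter, DESeq2 or the block, 34 to 42 of the 60 passed, and 3 of the 37 calls were lost in at least 1 of these fits. Of the 37 calls, 30 held with any 1 control library left out. The other 7 concerned Rsad2, Apobec3 and Mov10 in the stomach against the tongue, Rsad2 and Mov10 in the heart against the tongue, Apobec3 in the muscle against the tongue and Bst2 in the stomach against the muscle, and their largest adjusted p was 0.158 (edgeR). These were lost without one or another library of each of the 4 tissues, and the cause was not tested.

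The genes did not share one order of tissues. Mx1 was highest in the stomach, by 1.69 log2 units over the heart (SE 0.33, adjusted p = 0.00135, edgeR) and 1.81 over the tongue (SE 0.33, adjusted p = 0.00112, edgeR), whereas its neighbour Mx2 did not pass between these tissues (adjusted p = 0.132 and 0.685). Rsad2 was highest in the heart, by 1.27 over the stomach (SE 0.20, adjusted p = 0.000357, edgeR), and its neighbour Cmpk2 did not pass in that pair (adjusted p = 0.980). Its stomach and muscle levels did not pass either (adjusted p = 0.320). Ifitm3 was highest in the tongue, by 1.34 over the stomach (SE 0.32, adjusted p = 0.00549, edgeR) and 1.53 over the muscle (SE 0.32, adjusted p = 0.00223, edgeR), while heart and tongue did not pass (adjusted p = 0.0910). For Cmpk2, Eif2ak2 and Ifi44, heart, stomach and tongue did not pass against one another, and muscle was lower than each of them. Bst2 passed only against muscle. Apobec3 and Mov10 were lower in the tongue than in the heart, by 0.98 (SE 0.23) and 0.69 (SE 0.20), and lowest in the muscle.

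Per length of exon, as FPKM (the CPM divided by the exon length in kilobases), the membrane-bound restriction factors were far more abundant than the rest. Ifitm3 was the highest in every tissue, at 579 ± 77.7, 393 ± 192, 328 ± 41.5 and 974 ± 65.7 FPKM (SD, n = 3 control samples). Bst2 was second, at 468 ± 21.2, 330 ± 48.5, 210.3 ± 39.1 and 469.6 ± 77.2 FPKM. In the stomach the control ranges of Ifitm3 and Bst2 overlapped, at 215 to 597 and 277 to 371 FPKM, and in the other tissues they did not. Rsad2 came after them in the heart (50.7 ± 6.43 FPKM), muscle (17.5 ± 4.07) and tongue (33.1 ± 2.00), and Mx1 in the stomach (89.6 ± 42.4). The other genes lay between 2.21 FPKM, Mov10 in the muscle, and 27.1 FPKM, Mx1 in the heart, and of the 9 pairs of neighbours in the order 5, 7, 5 and 5 had ranges that overlapped. Beside Ifitm3, Bst2 and the gene in the third place, the neighbours that did not overlap were Ifi44 over Eif2ak2 in the heart, Apobec3 over Mov10 in the muscle and Eif2ak2 over Mov10 in the tongue. The lower places depend on the length used: with the longest annotated transcript in place of the union of exons, 6, 4, 5 and 5 of the 10 genes kept their place, and Apobec3, whose 9454 exon bases span 20 transcripts of which the longest has 3053, moved from place 10 to place 5 in the stomach. With SN-011, Ifitm3 and Bst2 remained first and second in all 4 tissues, at 295 to 795 and 128 to 375 FPKM.

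**Figure D3:**
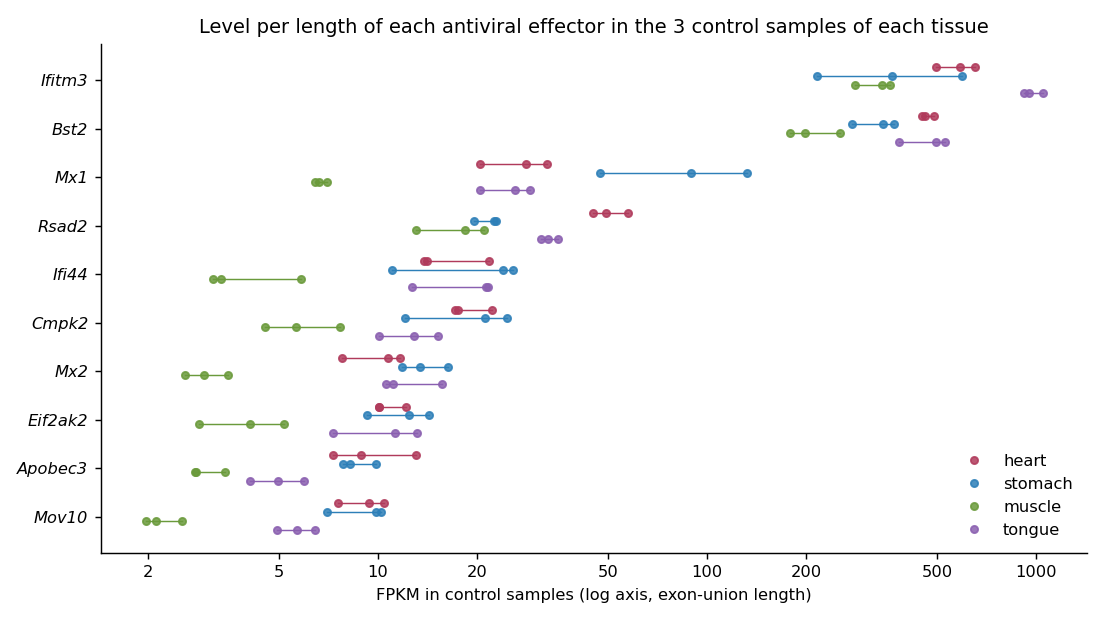
Level per exon length (FPKM, log axis) of each antiviral effector in the 3 control samples of each tissue, with a line from the lowest to the highest sample. Ifitm3 and Bst2 lie at 179 FPKM or more in every control sample, and all other genes lie at 132 FPKM or less.

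Within a sample, the ratio of 2 neighbouring genes does not depend on the scaling of the library. Mx1 to Mx2, per exon length, was 1.93, 2.60 and 1.66 in tongue control and 1.42, 1.32 and 0.983 in tongue SN-011 samples (log2 difference -0.73, two-sided exact permutation p = 0.1, adjusted over 4 tissues 0.2). In the muscle it was 2.17, 2.56 and 2.00 against 1.45 and 1.88 in the 2 SN-011 samples with counts (log2 difference -0.44, exact p = 0.1). The groups were apart in both, and 0.1 is the smallest p that 3 samples against 3, or 3 against 2, allow. In the heart and stomach the log2 difference was -0.52 and -0.89 with overlapping groups (exact p = 0.4 for both). Cmpk2 to Rsad2 had log2 differences of -0.16, -0.17, -0.47 and 0.16 (exact permutation p = 0.2, 0.6, 0.5 and 0.4, all 0.6 when adjusted). Between tissues, the control ratio of Cmpk2 to Rsad2 was 0.348 to 0.388 in the heart and 0.617 to 1.08 in the stomach.

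**Figure D4:**
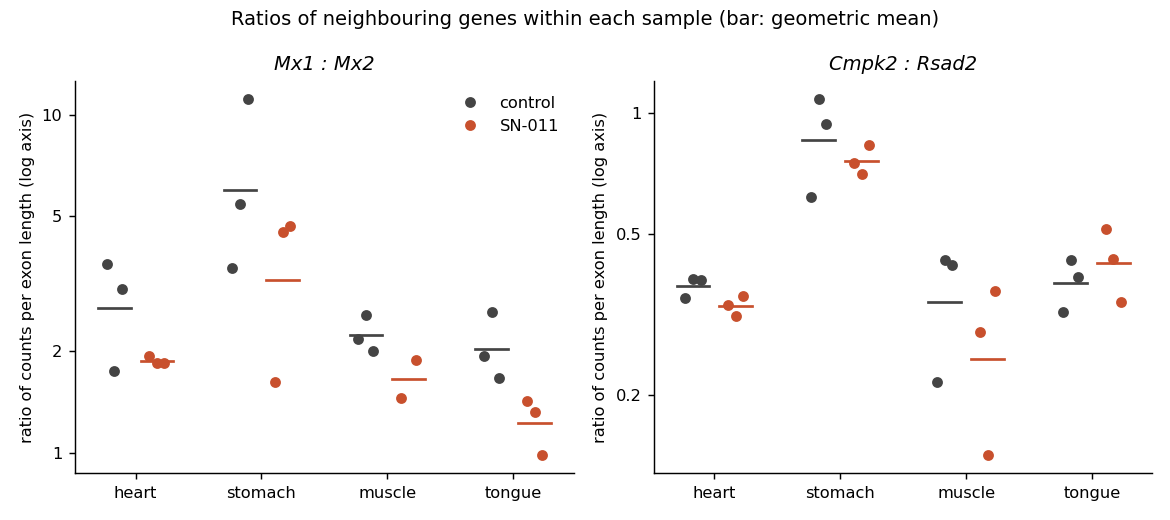
Ratio of counts per exon length of Mx1 to Mx2 (left) and of Cmpk2 to Rsad2 (right) in each sample, on a log axis, with the geometric mean of each group as a bar. Mx1 to Mx2 is lower in all SN-011 samples of the muscle and tongue, and muscle SN-011 replicate 2, with 0 counts of both, has no point.

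Over the 24 samples, with each gene centred on its tissue mean, the genes whose log2 CPM followed the median of the 10 effectors most closely were Parp9 (Pearson r = 0.97), Dhx58 (0.96), Ddx58 (0.96), Rnf213 (0.95) and Dtx3l (0.95), out of 13188 genes tested in all 4 tissues. Among the effectors, Bst2 (0.92), Ifi44 (0.91) and Cmpk2 (0.91) followed the median of the other 9 most closely, and Apobec3 (0.58), Mov10 (0.51) and Ifitm3 (0.19) least. These correlations are descriptive, and their points share the difference between treatment groups.

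Other antiviral effectors, a list of 39 genes such as Isg15, the Ifit and Oas families and the RNA sensors Ddx58 and Ifih1, were likewise mostly lower on average, 35, 38, 32 and 38 of 39 by tissue. Over all genes tested, 51.4%, 49.8%, 55.5% and 51.5% were lower on average. Their median log2 fold changes were -0.47, -0.95, -0.88 and -0.77. At an unadjusted p under 0.05, 22, 25, 14 and 29 were lower and 0, 0, 1 and 0 higher, where 11.6%, 11.4%, 5.8% and 7.33% of all genes were lower. Trim21, an antibody receptor in the cytosol that targets bound virions for degradation, was the 1 gene of the list called lower in the heart (log2 fold change -0.82, SE 0.13, adjusted p = 0.0356, edgeR). There 0.328% of all genes were called lower, and in the other tissues 0 of the list passed.

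A further list held 15 relatives of the effectors in sequence or enzyme activity. Of these, 12, 12, 10 and 11 could be tested, with median log2 fold changes of -0.10, 0.16, 0.27 and -0.17, and 0 passed in any tissue. At an unadjusted p under 0.05, 1, 2, 0 and 2 were lower and 1, 2, 2 and 0 higher. Of all genes, 11.6%, 11.4%, 5.8% and 7.33% were lower at that p. In either direction, 3615 of 16151, 4183 of 17031, 2095 of 14198 and 2074 of 16587 genes were under it. Ifitm2, next of kin to Ifitm3, was at 61.1 ± 9.04 CPM in heart control and 75.9 ± 10.6 CPM in heart SN-011 samples (SD, n = 3). Apobec2, a muscle relative of Apobec3, was at 203 ± 24.7 and 256 ± 1.85 CPM in the heart and at 375 ± 52.6 and 342 ± 39.8 CPM in the muscle. Cmpk1, the cytosolic counterpart of Cmpk2, was at 231 ± 59.3 CPM in stomach control and 123 ± 52.0 CPM in stomach SN-011 samples (log2 fold change -0.91, SE 0.37, adjusted p = 0.184, edgeR). The other eIF2alpha kinases, Eif2ak1, Eif2ak3 and Eif2ak4, had log2 fold changes of 0.08, -0.28 and 0.13 in the heart. The relatives and tissues named here are examples, whereas the medians and counts cover every relative that could be tested.

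Of 20 genes of the pathway from DNA sensing to interferon signalling, such as Cgas, Irf3, Irf7, Stat2 and the receptor genes, 17, 16, 16 and 17 could be tested and 0 passed. Their median log2 fold changes were -0.18, -0.13, -0.36 and -0.30. At an unadjusted p under 0.05, 5, 2, 3 and 5 were lower and 0, 3, 0 and 1 higher. Of all genes, 11.6%, 11.4%, 5.8% and 7.33% were lower at that p, and 3615, 4183, 2095 and 2074 genes were under it in either direction. Stat2, a subunit of ISGF3 that was picked with its values known, had a log2 fold change of -0.43 in the heart and -0.51 in the tongue, and passed in no tissue. Ifna2 and Ifna4 had 0 counts in every sample, so the interferon transcripts themselves were not detectable for these 2 genes at this depth.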

How the data were processed

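The authors deposited count tables, 1 per sample, of read pairs per gene without normalization. The methods of the study give strand-specific polyA libraries, Trimmomatic, hisat2, uniquely mapped pairs and featureCounts, whereas the submitters' processing notes list HISAT2, HTSeq and mm10, so the counter differs between the sources. The annotation is not given in the sources used here. Reads of near-identical copies are lost when only unique pairs are kept. Gene symbols, positions and exon lengths were taken from GENCODE M21 of GRCm38, and promoter sequences from RefSeq.

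The labels gave the tissue and treatment of each sample, with 3 samples per group. Each tissue was fitted alone with edgeR 4.0.16 in R 4.3.3 (filterByExpr with a minimum count of 10 and a minimum total count of 15, TMM normalization, prior count 0.125, quasi-likelihood test). The p-values of all genes tested were adjusted by the Benjamini-Hochberg method, and an adjusted p under 0.05 was the threshold. CPM values use TMM within the tissue. FPKM values use TMM over all 24 samples. Differences between tissues come from a joint fit, and control levels from a fit of the 12 control samples. Ratios were compared by exact permutation over 20 relabellings. For Mx1 to Mx2 in the muscle, where 2 SN-011 samples had a ratio, there were fewer relabellings. The quasi-likelihood fits of single tissues were tested on simulated counts with the same spread set for every gene. The joint fit, the fit of control levels and the other tests were not tested in this way. Python 3.11.15, pandas 2.3.3, numpy 2.4.6, scipy 1.17.1 and matplotlib 3.10.9 were used. Results were recomputed with library size alone or DESeq2's size factors as the scaling, without the filter, with DESeq2 1.42.0 or edgeR's exact test, in the joint fit, with the replicate number as a block, with the longest transcript as the length, and without each library in turn. For differences between tissues the block was the replicate number within each treatment.

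The 10 effectors were always named. From the other lists, genes past the threshold and some of the relatives of the effectors were named, with the 5 genes most alike in pattern. The genes named from the interferon pathway were chosen after their values were seen, and the effectors and the lists were chosen with earlier results of these data known. The list of other effectors had 40 genes, of which 39 matched.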

Additional observations from a re-analysis of the deposited data

Results flagged for a closer look

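In the analysis reported, Rsad2 was the 1 gene of the 10 called for a difference in its response to SN-011 between 2 tissues, in 1 of 60 tests. Its log2 fold change was -0.72 in the heart and -1.79 in the stomach, with a difference (heart minus stomach) of 1.09 in the joint fit (SE 0.28, adjusted p = 0.0483, edgeR). All 3 SN-011 samples were below all 3 control samples in both tissues. The call was lost in 20 of 24 fits with 1 library left out. It was also lost with DESeq2's size factors, library size alone or no filter. Over all genes, 2.01% passed in this pair. The cause was not tested.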

How the results depend on the processing

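The direction of the 10 effectors depended little on the processing, and the calls depended on it strongly. Of 520 fold changes under alternatives, 516 were below 0, and the 4 others were those of Ifitm3 in the stomach (0.10 with library size alone, and -0.48 to 0.19 with 1 library left out), Ifitm3 in the muscle (-0.17 to 0.013) and Mov10 in the muscle (-1.03 to 0.0068, the highest without SN-011 replicate 2). Counts for each tissue follow in the order heart, stomach, muscle, tongue, and counts of all genes are in either direction. Effectors called lower numbered 0, 0, 0 and 0 in the analysis reported, 3, 0, 0 and 0 with library size alone, 6, 5, 0 and 1 without the filter, 5, 6, 3 and 3 in DESeq2, 5, 6, 1 and 2 in the exact test, and 0, 5, 3 and 0 in the joint fit. With 1 library left out, the ranges were 0 to 3, 0 to 2, 0 to 2 and 0 to 8. Of all genes, 137, 0, 2 and 0 were called in the analysis reported, 1888, 1368, 110 and 18 without the filter, 1266, 1873, 886 and 395 in DESeq2, 912, 1807, 442 and 246 in the exact test and 1, 2738, 474 and 4 in the joint fit. Library size alone gave 249 in heart and 1 in muscle, DESeq2's size factors gave 1 in muscle, and the ranges with 1 library left out were 1 to 787, 0 to 64, 0 to 1103 and 0 to 2135. The cause was not tested. Of the 60 tests of a difference between tissues, 0 passed with DESeq2's size factors, library size alone or no filter. DESeq2 called 2, and 0 to 2 passed with 1 library left out. The share of all genes was not counted in these fits. With the longest transcript, 6, 4, 5 and 5 effectors kept their place by level. The log2 difference (SN-011 minus control) of the stomach ratio of Cmpk2 to Rsad2 ranged from -0.41 to 0.00047 with 1 library left out.

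The labels do not say what same-numbered samples share. As deviations from group means, same-numbered control and SN-011 samples of a tissue correlated at -0.39 to 0.28 (mean -0.05), control samples of different tissues at -0.14 to 0.52 (mean 0.23) and SN-011 samples of different tissues at -0.05 to 0.19 (mean 0.06). Only control samples of heart and muscle, and of muscle and tongue, exceeded 0.1 for all 3 numbers. With the replicate block, 4, 2, 0 and 0 of the 10 effectors were called lower by tissue, in the same order. Of the 16151, 17031, 14198 and 16587 genes tested, 242, 181, 0 and 0 were called in either direction. In blocked fits, 2 of the 60 differences between tissues and 38 of the 60 control levels passed, the last against 37 without the block. The share of all genes was not counted for these differences and levels with the block. On the total before normalization, 3 counts stood for up to 0.210 per 1000000 counts, and this floor covers counting error only. Muscle SN-011 replicate 2, with 11546 genes with counts, had 0 counts of Mx1, Mx2 and Mov10. The same library had 820 counts of Bst2 and 1740 of Ifitm3. Why the 3 genes were at 0 was not tested, which limits what can be said of them in this sample.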
